A study of Mus musculus with 24 samples.

Results

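The genes described here are 47 components of the DNA replication machinery and of deoxynucleotide supply: origin licensing and firing factors, the sliding clamp and its loader, the replicative polymerases and primase, Okazaki fragment enzymes, the single-strand binding complex, nucleotide synthesis enzymes, fork protection factors and a chromatin assembly complex. They were listed by name, but with earlier results of these data known, so the list is not independent of the values. The MCM2-7 helicase, Cdc45, Gins1 and Gins2 were kept apart. A gene was read from a probe set whose only gene symbol in the platform annotation is that gene, and where it had several the probe set with the highest mean over the 24 arrays was used. That gave 46 of the 47 members among 22180 named genes. The remaining member, Rfc4, a clamp loader subunit, shares its probe set with Eif4a2 and has no value here. All 46 passed the filter on low values (at least 3 arrays above that array's own median), as did 15234 genes in all, and Orc1 passed with the minimum of 3 arrays, all of them dp12 arrays, so the filter itself favoured a high dp12 value of Orc1.

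Mouse RNA was hybridised to 24 arrays of one colour, 3 in each of 8 groups, formed by 2 genotypes labelled wildtype and Mutant and the 4 stage codes V (virgin), dp12, dp18 and Lac10. All mice are labelled as a mixture of FVB (80%), 129SVEV (10%) and Black Swiss (10%). The series title names BRCA1 and pregnancy. The labels give no allele, no driver of a deletion, no age and no tissue, and the codes are taken as stages of pregnancy and lactation although the design text counts them in months. Titles give most arrays a body weight, so an array is taken to be 1 mouse, and p-values measure the spread between these mice. The titles of wild-type Lac10 replicates 2 and 3 give the same weight and colour word, so the weights do not show these to be 2 mice. Values are log2 expression values, so a difference of 1 is a doubling. They do not compare levels between genes.

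Chromosomal DNA is copied once per cell cycle. In G1 the origin recognition complex, Cdc6 and Cdt1 load the MCM helicase on DNA, which geminin prevents after S phase begins. The Dbf4-Cdc7 kinase with treslin (Ticrr) and Topbp1 then turns loaded helicases into forks, where polymerase alpha-primase starts strands, polymerase epsilon extends the leading strand and polymerase delta, held by Pcna, extends the lagging strand. Many of these genes are known E2F targets and are transcribed as cells enter S phase, and the mammary epithelium is known to proliferate strongly during pregnancy.

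RefSeq promoter windows (GRCm38.p6, 250 bases before to 50 after the gene start) were matched by symbol for 40 of the 47 members. Each window was searched on both strands for 4 E2F octamers, TTTGGCGC, TTTCGCGC, TTTCCCGC and TTTGCCGC, and for CCAAT, with no overlap between the octamers and CCAAT in these windows. Some members have more than 1 window (Lig1 and Orc4 have 3), and a gene was counted if any of its windows matched. An octamer was found for 13 of the 40 members (32.5%), against 704 of 27025 genes with a window (2.61%) and 480 of 11867 tested genes with a window (4.05%). CCAAT was found in 19 of the 40 (47.5%) and in 41.1% of all genes. The sites that lie wholly before the start are printed for the 7 members that have such a site, to show what was matched and how the letters around it vary. Capitals mark the octamer as read on the gene's strand.
Orc3, chr4:34614946-34615013, minus strand: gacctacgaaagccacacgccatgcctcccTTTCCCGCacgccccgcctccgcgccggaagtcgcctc
Orc1, chr4:108579397-108579453, plus strand: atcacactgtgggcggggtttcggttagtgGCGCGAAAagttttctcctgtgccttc
Rfc3, chr5:151651209-151651248, minus strand: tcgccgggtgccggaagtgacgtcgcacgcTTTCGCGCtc
Gins3, chr8:95633488-95633555, plus strand: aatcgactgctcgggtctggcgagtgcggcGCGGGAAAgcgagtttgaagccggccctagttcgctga
Topbp1, chr9:103305168-103305235, plus strand: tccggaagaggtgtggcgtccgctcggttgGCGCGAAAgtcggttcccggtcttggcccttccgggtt
Cdc6, chr11:98907983-98908050, plus strand: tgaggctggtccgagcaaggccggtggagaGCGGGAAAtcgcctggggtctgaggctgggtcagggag
Pola1, chrX:93632256-93632323, minus strand: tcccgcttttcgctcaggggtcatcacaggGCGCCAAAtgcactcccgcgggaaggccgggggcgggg
These members span licensing (Orc1, Orc3, Cdc6), firing (Topbp1, Gins3), the clamp loader (Rfc3) and polymerase alpha (Pola1), and the octamer stands in its reversed orientation in 5 of the 7. In the other 6 members (Cdt1, Pold1, Pold3, Pole2, Lig1 and Clspn) the match reaches or follows the start. A match is a description of the letters and not a measured binding site. The change from V to dp12 reported below had a median of 0.91 over the 13 members with an octamer, 11 of them past the threshold, and of 0.99 over the 26 tested members with a window and none, 19 of them past it.

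The deposited values ran from 1.98 to 13.51. Brca1 itself averaged 5.04 ± 0.32 in wild-type and 4.89 ± 0.58 in mutant virgins (SD, n = 3), and its genotype difference lay between -0.14 and 0.45 at the 4 stages, with adjusted p of at least 0.816 in limma. The allele is not given, so whether this probe set reads the altered part of the gene is unknown and the values do not check the labels. The mean of 8 milk protein genes was 8.10 to 9.60 in virgin arrays and 11.14 to 12.38 at Lac10, and the mean of 12 luminal epithelial markers was 6.51 to 9.73 over all arrays, so genes that define mammary epithelium were detected. An array's median correlation with the others was lowest for mutant Lac10 replicate 2 (0.799), wild-type dp18 replicate 1 (0.837) and mutant dp18 replicate 1 (0.863), which also had the lowest mean over the 46 members in their groups (5.88, 5.90 and 6.13) and the lowest housekeeping means (8.30, 8.75 and 8.84). Results that rest on these arrays are given with and without them.

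Genes of every step of replication were higher at dp12 than in virgins. Averaged over the genotypes, all 46 members were higher, with a median log2 difference of 1.00 (2.00-fold) against 0.13 over all 15234 genes tested. The increase passed the threshold (limma moderated test, Benjamini-Hochberg adjusted p under 0.05 over all genes) for 36 of the 46, and for 13% of all genes tested. Without Orc1, whose rise is no support, 35 of 45 passed with a median of 1.02. With any 1 array left out the count was 34 to 38. When each array was centred on housekeeping genes, which moved the median of all genes by -0.46, 40 of 46 members were higher and 26 were called. If the RNA came from whole tissue, which the labels do not state, more cells of a replicating type and more RNA per cell cannot be told apart. The 9 measured proliferation markers (Mki67, Ccnb2, Plk1 and the like) rose too, 9 of 9, with a median of 2.43; their mean was 5.94 to 6.59 in wild-type and 5.35 to 6.37 in mutant virgins and 8.16 to 8.58 and 8.11 to 8.95 at dp12. Of 12 luminal markers 3 rose and 1 fell (median 0.27). Of 9 basal and myoepithelial markers 6 rose (median 0.80), among them Cnn1 by 1.18, Myh11 by 1.06 and Acta2 by 0.60, and of 8 milk protein genes 6 rose (median 1.21), among them Wap by 3.46. One of 3 brown adipocyte markers rose (median 0.61), and of 5 skeletal muscle genes Ckm fell by 0.82 (median -0.58). No lymphocyte (0 of 7, median -0.55), white adipocyte (0 of 9, -0.33), endothelial (0 of 8, -0.37), macrophage and neutrophil (0 of 8, 0.17) or keratinocyte marker (0 of 2, 0.20) passed in limma, with 2 of the 7 lymphocyte markers and 0 of the others at an unadjusted p under 0.05. The part of cell composition in the members' change was not tested.

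**Figure D1:**
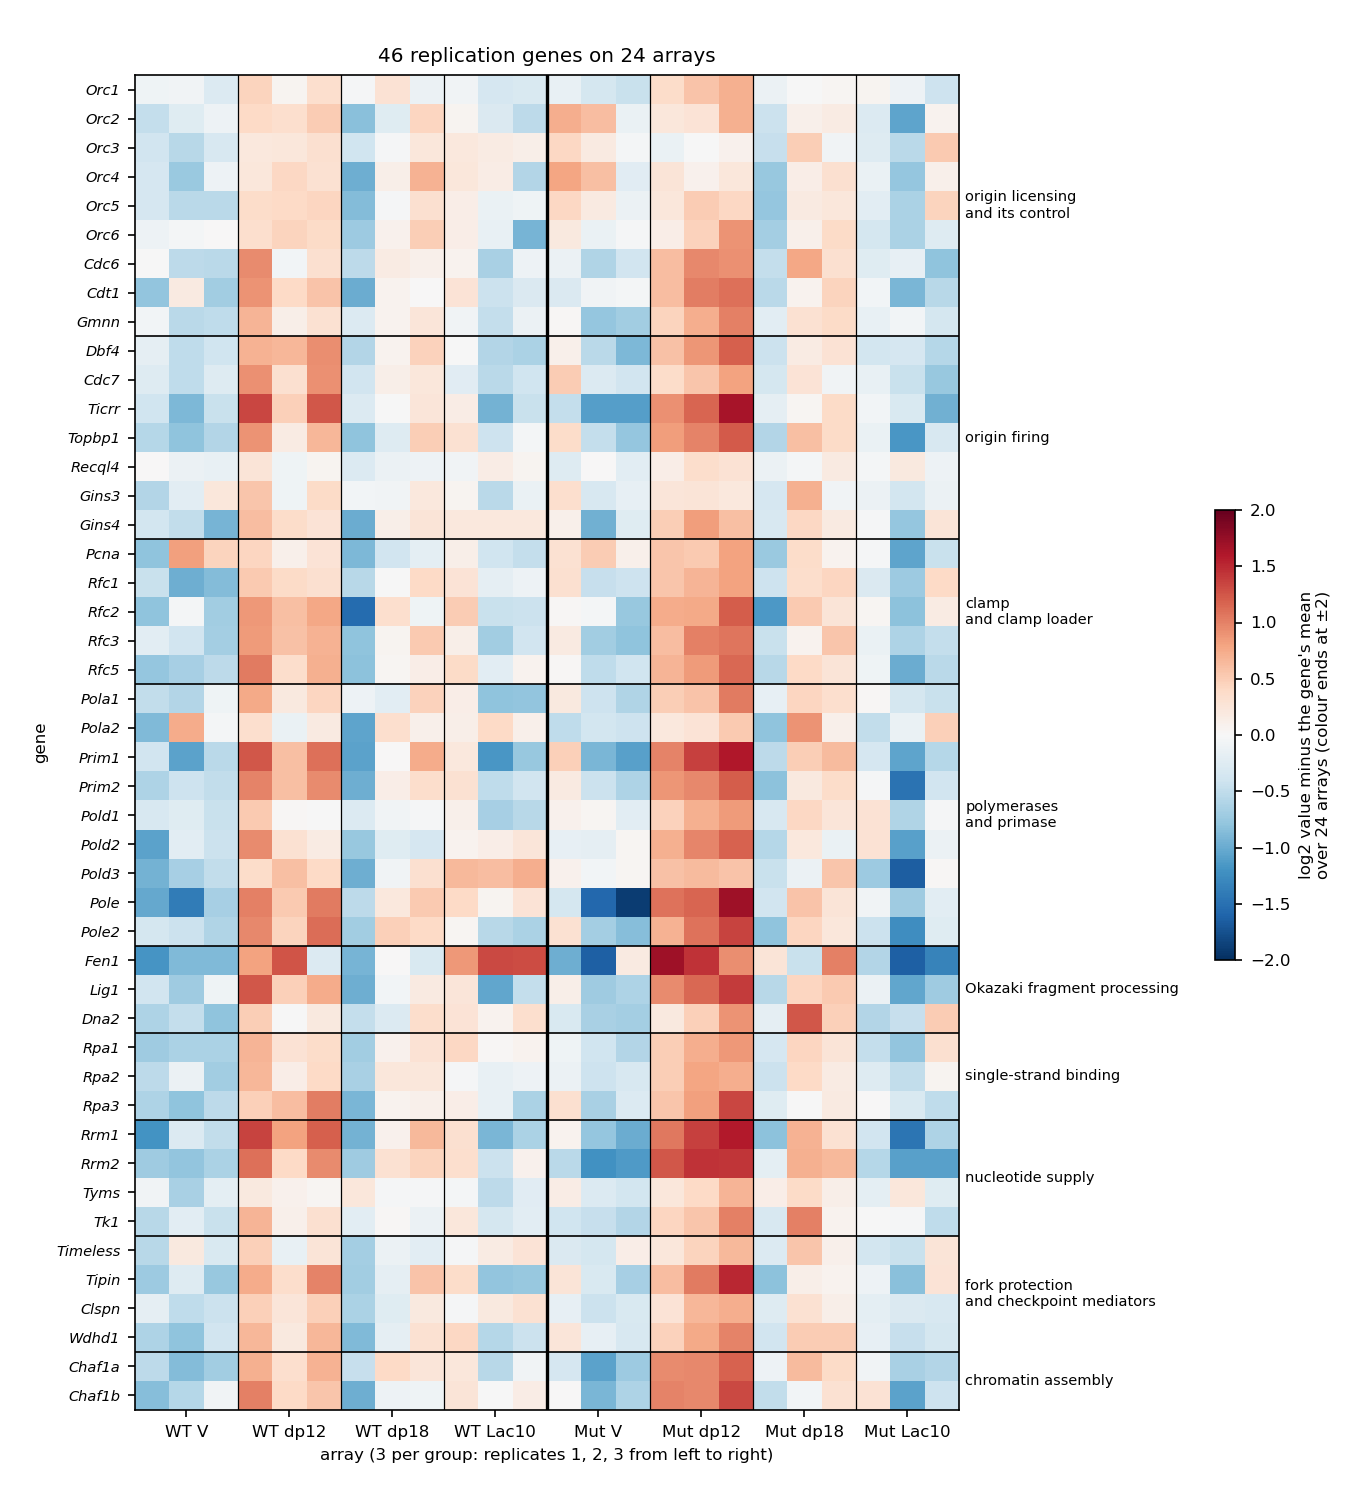
Heat map of 46 replication genes (rows, grouped by role) on 24 arrays (columns, 3 per group, wild type left and mutant right of the thick line), coloured by the log2 value minus the gene's mean over the 24 arrays. The dp12 columns of both genotypes are red for 40 to 46 of the 46 genes, with the largest mean deviations for Rrm1 (1.23), Prim1 (1.15), Ticrr (1.13) and Rrm2 (1.09). The virgin columns are red for 1 to 7 genes except the first mutant one (29), and the first dp18 column of each genotype (1 and 2) and the second mutant Lac10 column (2) are blue in nearly every row. With housekeeping centring 40 of the 46 genes, not all, are higher at dp12 than at V in the genotype mean.

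The licensing factors had the lowest median change of the 9 role groups, 0.55. From V to dp12, 4 of 9 rose in the genotype mean: Cdt1 by 1.05, Cdc6 by 0.98, geminin (Gmnn) by 0.97 and Orc1 by 0.64. Orc1 passed the filter on low values through 3 dp12 arrays alone, so its place in this count supports nothing. Geminin, the inhibitor of Cdt1, read 5.60, 5.13 and 5.15 in wild-type virgins and 6.35, 5.77 and 5.97 at dp12. In mutants it read 5.68, 4.89 and 4.98 and then 6.10, 6.39 and 6.67, so dp12 lay above V in both genotypes (0.97, SE 0.17, limma adjusted p = 0.000829). The 5 other origin recognition subunits, Orc2 to Orc6, had mean differences of 0.23 to 0.55 that did not pass (adjusted p from 0.0830 to 0.507). Orc3 was among the 3 smallest changes of all members, 0.23, SE 0.18, limma adjusted p = 0.366. It read 6.34, 6.18 and 6.40 in wild-type virgins and 6.94, 6.94 and 7.04 at dp12, but 7.14, 6.91 and 6.69 in mutant virgins and 6.59, 6.72 and 6.82 at dp12. The wild-type arrays thus separated upwards while the mutant arrays overlapped. Orc4 also separated in wild type and overlapped in mutants, with 7.03, 6.63 and 7.26 and then 7.59, 7.78 and 7.68 in wild type against 8.17, 7.97 and 7.15 and then 7.63, 7.46 and 7.60 in mutants (0.26, SE 0.26, limma adjusted p = 0.507).

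Among the firing factors 5 of 7 rose, with a median of 1.02. Ticrr, which helps recruit Cdc45 to the loaded helicase, read 5.29, 4.79 and 5.25 in wild-type virgins and 7.02, 6.16 and 6.92 at dp12. In mutants it read 5.20, 4.58 and 4.59 and then 6.60, 6.84 and 7.34, with no overlap in either genotype. The mean difference was 1.87, SE 0.22, limma adjusted p = 1.97e-05, a 3.64-fold change. All virgin readings of Ticrr were below the lowest median of any array, 5.31, so this change starts from low readings. Topbp1 rose by 1.27, Dbf4, the regulatory subunit of the Cdc7 kinase, by 1.23, Gins4, a GINS subunit, by 1.02 and Cdc7 itself by 0.84. Gins3 (0.38) and Recql4 (0.29), a helicase-like initiation factor, did not pass.

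All 4 measured clamp loader subunits rose, by 1.02 to 1.27. Rfc5 read 6.10, 6.20 and 6.34 in wild-type virgins and 7.91, 7.21 and 7.59 at dp12, and 6.90, 6.36 and 6.47 and then 7.55, 7.73 and 8.02 in mutants (1.27, SE 0.21, limma adjusted p = 0.000448). The clamp itself, Pcna, showed the smallest change of the 46 members, 0.22, SE 0.25, limma adjusted p = 0.541. It read 7.11, 8.74 and 8.37 in wild-type virgins and 8.35, 8.02 and 8.20 at dp12, and 8.22, 8.43 and 8.02 and then 8.48, 8.45 and 8.73 in mutants. Wild-type virgin replicate 2 was the highest wild-type array for Pcna. That array also had the highest mean over 7 T and B lymphocyte markers of all 24, 7.70 against 5.11 and 5.24 in the other wild-type virgins, and the part of those cells in the Pcna value was not tested.

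The polymerases and primase rose in 8 of 9 cases, with a median of 1.05. Pole, the catalytic subunit of the leading-strand polymerase epsilon, had the largest change of all members, 2.24, SE 0.25, limma adjusted p = 1.54e-05, or 4.72-fold. It read 5.12, 4.74 and 5.48 in wild-type virgins, 7.16, 6.67 and 7.18 at dp12, 5.62, 6.35 and 6.67 at dp18 and 6.54, 6.19 and 6.42 at Lac10. In mutants it read 5.79, 4.57 and 4.25 at V, 7.23, 7.31 and 7.84 at dp12, 5.76, 6.72 and 6.39 at dp18 and 6.07, 5.43 and 5.93 at Lac10. Every dp12 array was above every virgin array, and mutant virgin replicate 1 was the highest of the virgins. The virgin readings 5.12, 4.74, 4.57 and 4.25 were below the lowest median of any array, 5.31. The 4.72-fold change of Pole thus starts from low readings. Pole2, its second subunit, rose by 1.38, and the primase subunits Prim1 and Prim2 rose by 1.74 and 1.33. Within polymerase alpha, the catalytic Pola1 rose by 0.91, while the accessory Pola2 differed by 0.48 (limma adjusted p = 0.255). Of polymerase delta, the catalytic Pold1 rose by 0.61 and the accessory Pold2 and Pold3 by 1.05 and 0.87. The call of Pold1 was lost without wild-type dp12 replicate 1, wild-type V replicate 3, mutant dp12 replicate 2 or 3, or mutant V replicate 3 (limma adjusted p from 0.0536 to 0.0759).

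All 3 Okazaki fragment enzymes rose. Fen1, the nuclease that cuts the flap of each fragment, read 5.25, 5.56 and 5.55 in wild-type virgins and 7.23, 7.69 and 6.16 at dp12, and 5.45, 4.81 and 6.61 and then 8.13, 7.88 and 7.37 in mutants. Within each genotype dp12 was above V, though wild-type dp12 replicate 3 lay below the highest mutant virgin (1.87, SE 0.31, limma adjusted p = 0.000497). DNA ligase 1 (Lig1), which seals the fragments, rose by 1.39, and Dna2, a nuclease-helicase that trims long flaps, by 0.96.

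The 3 subunits of replication protein A, which coats single-stranded DNA, rose together by 1.08 (Rpa1), 0.90 (Rpa2) and 1.23 (Rpa3). Rpa3 read 7.18, 7.00 and 7.27 in wild-type virgins and 8.28, 8.42 and 8.82 at dp12, and 8.11, 7.14 and 7.52 and then 8.34, 8.62 and 9.14 in mutants (1.23, SE 0.21, limma adjusted p = 0.000557). Rpa1 read 6.34, 6.42 and 6.42 and then 7.73, 7.35 and 7.41 in wild type, and 6.96, 6.65 and 6.47 and then 7.55, 7.78 and 7.92 in mutants. No virgin array reached a dp12 array for either subunit.

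All 4 nucleotide supply enzymes rose, with a median of 1.40. The ribonucleotide reductase subunits, which make deoxynucleotides from ribonucleotides, were the highest of them, Rrm2 with 1.93, SE 0.22, limma adjusted p = 1.54e-05 and Rrm1 with 1.84. Rrm2 read 5.75, 5.67 and 5.83 in wild-type virgins, 7.56, 6.86 and 7.40 at dp12, 5.76, 6.77 and 6.90 at dp18 and 6.80, 6.04 and 6.54 at Lac10. In mutants it read 5.91, 5.25 and 5.33 at V, 7.70, 7.91 and 7.90 at dp12, 6.27, 7.17 and 7.11 at dp18 and 5.89, 5.37 and 5.37 at Lac10. The mutant dp12 arrays were all above the wild-type dp12 arrays, and the mutant Lac10 arrays all below the wild-type ones. Thymidine kinase 1 (Tk1), which salvages thymidine, rose by 0.96 and thymidylate synthase (Tyms) by 0.51. The call of Tyms was lost without wild-type dp12 replicate 1, wild-type V replicate 2, mutant dp12 replicate 3, or mutant V replicate 2 or 3 (limma adjusted p from 0.0587 to 0.0723).

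Of the fork protection factors 3 of 4 rose: Tipin by 1.29, Wdhd1, which links polymerase alpha to the helicase, by 0.96, and claspin (Clspn), which carries the checkpoint signal, by 0.81. Claspin read 5.71, 5.38 and 5.45 in wild-type virgins and 6.36, 6.12 and 6.36 at dp12, and 5.73, 5.45 and 5.58 and then 6.15, 6.56 and 6.61 in mutants (0.81, SE 0.15, limma adjusted p = 0.000939). Timeless, the partner of Tipin, differed by 0.51 and did not pass (limma adjusted p = 0.0663). Both measured subunits of chromatin assembly factor 1, which deposits histones behind the fork, rose. Chaf1a read 5.18, 4.82 and 5.00 in wild-type virgins and 6.41, 6.03 and 6.39 at dp12, and 5.35, 4.63 and 4.97 and then 6.64, 6.66 and 6.88 in mutants, with no overlap (1.51, SE 0.19, limma adjusted p = 2.75e-05). Virgin readings of Chaf1a were below the lowest median of any array, 5.31, except on mutant replicate 1 (5.35). Chaf1b rose by 1.38.

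The related lists, which share these arrays, gave context for the same step. The 9 helicase genes kept apart (Mcm2 to Mcm7, Cdc45, Gins1 and Gins2) rose in 9 of 9 cases with a median of 1.39. Of 19 other replication genes 9 rose (median 0.61), of 14 other nucleotide supply genes 6 (median 0.51), and of 12 E2F and pocket protein genes 6 (median 0.72). Top2a is both a listed replication gene and a proliferation marker. Of 24 housekeeping genes 5 rose (median 0.21). None of these 5 lists had a member that fell past the threshold.

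The rise from V to dp12 was also tested in each genotype, which asks whether mutants made the same transition. In wild type 22 of 46 members rose (5.91% of all genes rose), and all 46 were higher, with a median of 1.06 against 0.28 over all genes. In mutants 22 rose (3.02% of all genes), 44 were higher and the median was 1.06 against 0.01. All 3 dp12 arrays lay above all 3 virgin arrays for 40 members in wild type, as they did for 41.7% of all genes, and for 39 members in mutants, against 22.1% of all genes. With housekeeping centring 38 and 39 members were higher in wild type and mutants. Of the 46 members 16 passed in both genotypes, 6 in wild type and not in mutants, 6 in mutants and not in wild type, and 18 in neither.

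The difference between the genotypes in this step passed for 0 of 46 members in limma (1 at an unadjusted p under 0.05, Orc3; 0.00656% of all genes called). Members called in 1 genotype were not shown to differ between genotypes by this fit. With the compared groups alone the difference was called for Orc3 (limma adjusted p = 0.0216), and with array weights for 5 members, Orc3 (limma adjusted p = 0.00416), Orc5, Pole, Rrm2 and Chaf1b, of which Orc3 and Orc5 had the smaller step in mutants and the other 3 the larger. The shares of all genes called under these 2 settings are not given here, so these calls show no excess of members. The counts within a genotype were sensitive to single arrays. For wild type the count was 0 without dp12 replicate 1 or without V replicate 2, 1 without V replicate 3, 5 and 6 without dp12 replicates 3 and 2, 12 without V replicate 1, and 12, 11 and 12 without mutant dp12 replicates 1, 2 and 3. For mutants it was 9 and 6 without dp12 replicates 2 and 3, and 6 and 8 without V replicates 2 and 3. It rose to 38 and 34 without the 3 arrays of lowest correlation, and fell to 2 and 16 with housekeeping centring. Under that centring Orc3 was also called lower at dp12 than at V in mutants (-0.64, limma adjusted p = 0.0338).

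**Figure D2:**
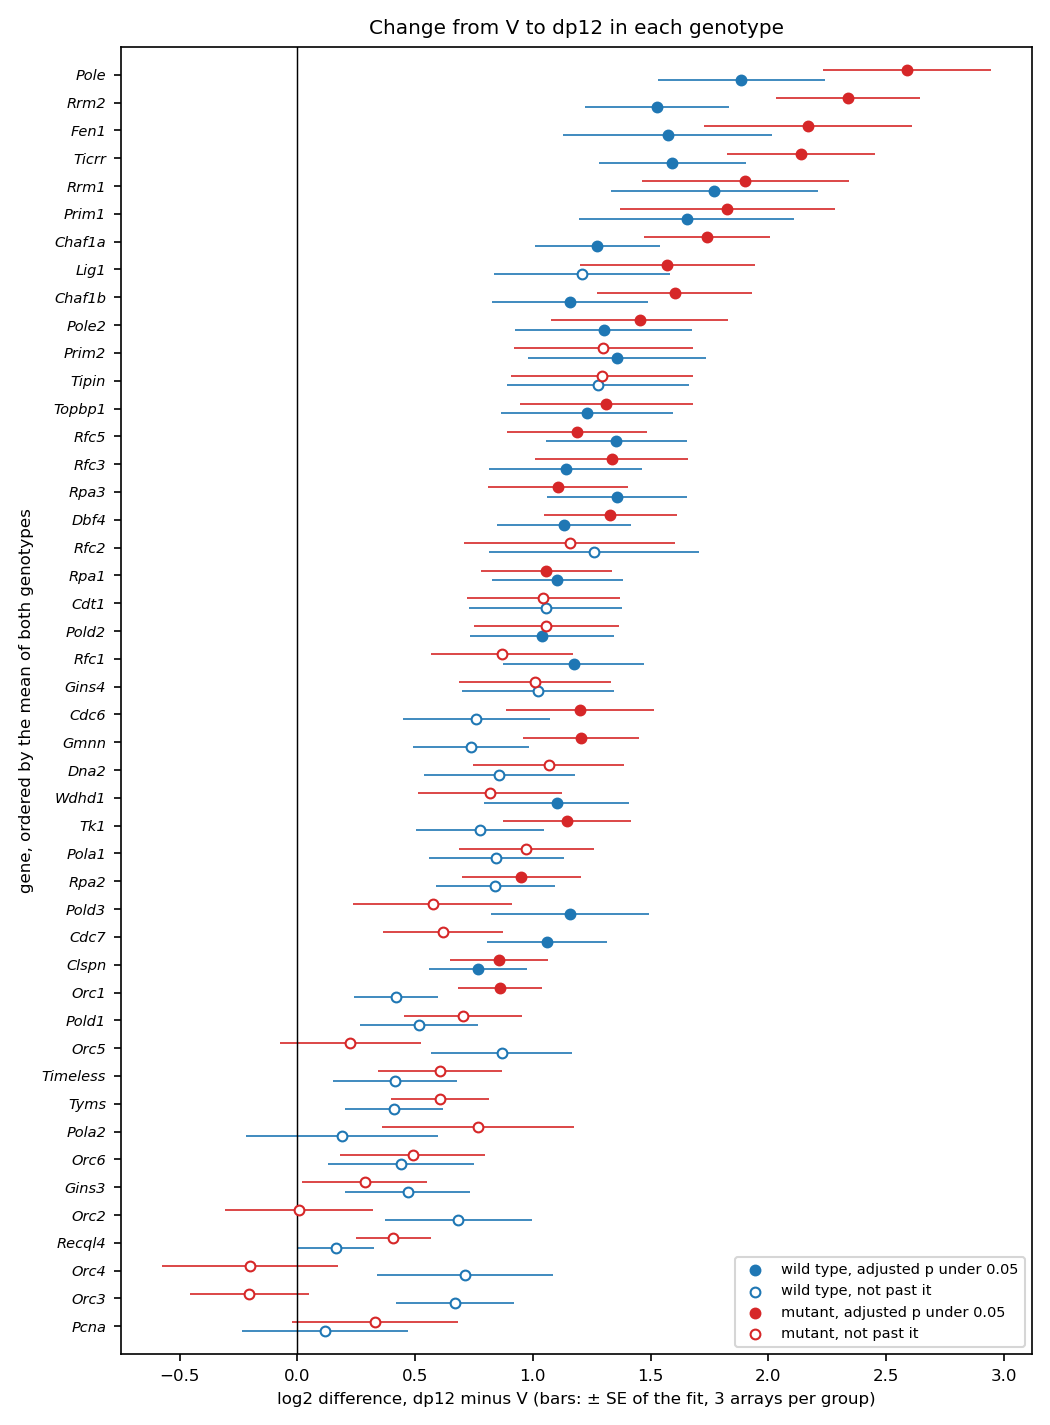
Log2 difference between dp12 and V for each of 46 genes in wild type (blue) and mutants (red), with bars for ± SE of the fit on 3 arrays per group and filled points for adjusted p under 0.05. The estimates run from 0.12 to 1.89 in wild type and from -0.20 to 2.59 in mutants, where Orc3 and Orc4 lie below 0 (with housekeeping centring 38 of 46 are above 0 in wild type and 39 in mutants), and Pole has the largest estimate in both.

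The machinery was lower again at dp18. In the genotype mean, dp18 was lower than dp12 for 46 of 46 members, with a median of -0.63 against -0.19 over all genes, and 12 members fell past the threshold (1.88% of all genes fell). With housekeeping centring, which moved the median of all genes by 0.36, 39 of the 46 were lower and 0 were called. The largest falls were those of Rrm1 (-1.23) and Chaf1b (-1.11), followed by Ticrr (-1.10), Lig1 (-1.07), Prim2 (-1.06) and Pold2 (-1.02). The others that passed were Pole, Rpa3, Cdt1, Rrm2, Rfc5 and Dbf4, at -0.98 to -0.83. Rfc2, Prim1 and Fen1 differed by -1.10, -1.10 and -1.04 and did not pass, with standard errors of 0.32, 0.32 and 0.31. Rrm1, which fell further, had a standard error of 0.31, and the others that passed had 0.20 to 0.27. Dna2 (-0.18), Orc3 (-0.16) and Tyms had the smallest differences, with adjusted p from 0.517 to 0.570. This comparison and the preceding one share the dp12 arrays, so neither supports the other.

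The count of 12 depended on single arrays as well. It was 0 without wild-type dp18 replicate 1, mutant dp18 replicate 1, wild-type dp12 replicate 1 or 3, or mutant dp12 replicate 2 or 3. It was 2 without wild-type dp12 replicate 2, 4 without mutant dp18 replicate 2 and 5 without mutant dp12 replicate 1, and 21 and 24 without replicate 3 of wild-type and mutant dp18. Arrays of other stages moved it through the shared spread: 7 and 4 without wild-type Lac10 replicates 2 and 3, 7 and 4 without wild-type V replicates 2 and 3, 4 and 5 without mutant V replicates 2 and 3, and 24 without mutant Lac10 replicate 2. Without the 3 arrays of lowest correlation, 2 of which are dp18 arrays, the members' median was -0.37 and 0 were called.

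Between dp18 and Lac10, 34 of 46 members were lower in the genotype mean, with a median of -0.19, and 0 passed in limma (5 at an unadjusted p under 0.05; 0% of all genes were called). Leaving out the 3 least correlated arrays gave a median of -0.35, again with 0 called. The median was -0.01 in wild type, with 22 members higher, and -0.40 in mutants, with 1 higher. Against dp12, Lac10 was lower for 46 of 46 members with a median of -0.85, a 1.81-fold fall, against -0.16 over all genes. There 36 members fell, as 12.9% of all genes did, and leaving out any 1 array gave 24 to 36. Without Orc1 the count was 35 of 45. With housekeeping centring, which moved the median of all genes by 0.39, 41 were lower and 18 called. The clamp and its loader (5 of 5), replication protein A (3 of 3), the nucleotide enzymes (4 of 4) and chromatin assembly (2 of 2) fell in full. Rrm1 fell by 1.84, Prim1 by 1.76, Ticrr by 1.56, Rrm2 by 1.55 and Lig1 by 1.52. Pcna, which did not pass from V to dp12, fell by 0.83 here (limma adjusted p = 0.0339). That call was lost without wild-type Lac10 replicate 2 or 3, any wild-type or mutant dp12 replicate or mutant Lac10 replicate 2 (limma adjusted p from 0.0528 to 0.111).

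The genotype mean difference Lac10 minus V had a median of 0.15 over the members, 32 higher and 14 lower, and 1 of 46 was called, where 6.6% of all genes were called in either direction. That member was Pole (1.10, SE 0.25, limma adjusted p = 0.0121), which kept its call with each array left out but not with its dimmer probe set. Rrm1 differed by 0.00 (SE 0.31) and Dbf4 by -0.01 (SE 0.20). Pcna was the lowest, -0.60, SE 0.25, limma adjusted p = 0.161. A p that misses the threshold does not show equal levels.

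In wild type alone, the median of Lac10 minus V was 0.31 with 37 members higher. There 3 of 46 were called, all upwards, where 7.24% of all genes were called in either direction, so the members show no excess. The 3 were Fen1 (2.15, SE 0.44, limma adjusted p = 0.00615), Pold3 (1.37, SE 0.34, limma adjusted p = 0.0168) and Pole (1.27, SE 0.36, limma adjusted p = 0.0339). Their wild-type Lac10 arrays all lay above the wild-type virgin arrays, as did those of members not called, Rpa1, Dna2 and Rfc1 among them. The share of all genes that separated in this way is not given here. In mutants the median was -0.02 with 21 members higher, and 0 passed in limma (4 at an unadjusted p under 0.05; 2.88% of all genes called). There Fen1 differed by -0.38, SE 0.44, limma adjusted p = 0.604, Pold3 by -0.80, SE 0.34, limma adjusted p = 0.158 and Pole by 0.94, SE 0.36, limma adjusted p = 0.125. The wild-type calls of Fen1 and Pole were lost with their dimmer probe sets (0.18 and 0.014), and that of Pole also with housekeeping centring (limma adjusted p = 0.0787). Pold3 lost its call without wild-type Lac10 replicate 2 or 3 or wild-type V replicate 1 (limma adjusted p from 0.0544 to 0.0708), and Pole without any 1 of the 6 wild-type V and Lac10 arrays (limma adjusted p from 0.0545 to 0.117). The count fell from 3 to 1 without wild-type Lac10 replicate 2 or 3 or wild-type V replicate 1, and 1 mutant member was called without mutant Lac10 replicate 3.

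In wild type 43 members had their highest mean at dp12 and 3 at Lac10, and the lowest mean was at V for 34, at Lac10 for 8 and at dp18 for 4. In mutants 44 were highest at dp12 and 2 (Orc3 and Orc4) at V, and the lowest mean was at Lac10 for 25 and at V for 21. The dp18 mean lay between V and dp12 for 41 members in wild type and 37 in mutants.

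**Figure D3:**
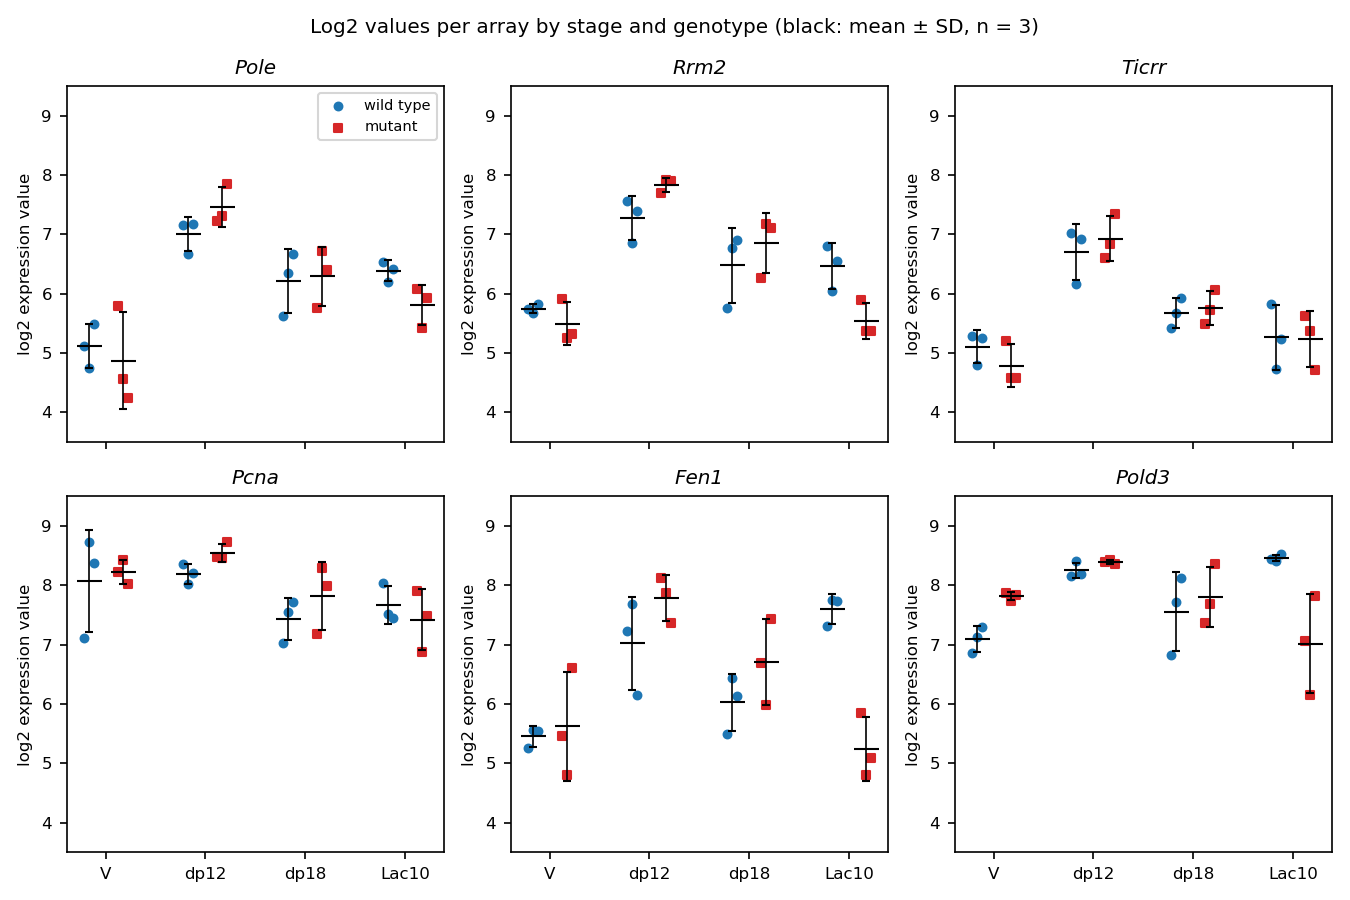
Log2 values on each array for 6 genes at the 4 stage codes, wild type as blue circles and mutant as red squares, with the mean ± SD (n = 3) in black. Pole, Rrm2 and Ticrr peak at dp12 in both genotypes, and Pcna ranges from 6.88 to 8.74. At Lac10 the wild-type and mutant points of Fen1 (7.31 to 7.76 against 4.80 to 5.85) and Pold3 (8.42 to 8.52 against 6.16 to 7.83) do not overlap.

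The genotype comparison asks whether the replication genes of mutants stood apart at any stage. In virgins 0 of 46 members passed in limma, where 0.0263% of all genes were called. At an unadjusted limma p under 0.05 there were 5 members, with no share of all genes to set them against. The median difference, mutant minus wild type, was 0.14, against 0.20 over all genes, with 32 higher, and with housekeeping centring, which moved all genes by -0.15, it was -0.01 with 22 higher. The 5 unadjusted members were 4 subunits of the origin recognition complex, Orc2 to Orc5, and Pold3 (limma adjusted p from 0.276 to 0.313). Orc3 was higher in mutant virgins by 0.61 (SE 0.25, limma adjusted p = 0.276), and its arrays, given above, did not overlap. Pold3, an accessory subunit of polymerase delta, read 6.86, 7.13 and 7.30 in wild-type and 7.88, 7.74 and 7.84 in mutant virgins (0.73, SE 0.34, limma adjusted p = 0.305). Every mutant array was above every wild-type array. Without the 3 arrays of lowest correlation, none of them a virgin array, 5 members passed. The share of all genes called under that setting is not given here, so these 5 calls show no excess of members.

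At dp12 and dp18 the mutants were slightly higher in most members, without a call. At dp12, 40 of 46 were higher with a median of 0.24 against -0.0035 over all genes, and 0 passed (0 unadjusted; 0% of all genes called). The lowest p values were those of Pold1 and Rrm2. Pold1 read 7.29, 6.80 and 6.76 in wild type and 7.23, 7.48 and 7.63 in mutants, which overlap (0.49, SE 0.25, limma adjusted p = 1.000). Rrm2, whose dp12 arrays did not overlap, differed by 0.56, SE 0.31, limma adjusted p = 1.000. At dp18, 40 of 46 were higher with a median of 0.22 against 0.01, and 0 passed (0 unadjusted; 0% of all genes called). Dna2 read 5.27, 5.47 and 6.09 in wild type and 5.57, 6.99 and 6.22 in mutants (0.65, SE 0.32, limma adjusted p = 1.000). Mutant dp18 replicate 2 was its highest value, and on that array the mean of the 12 luminal markers was 7.23 and that of the endothelial markers 10.53, the lowest of the dp18 arrays and the highest of all 24; their part in the Dna2 value was not tested. Timeless read 4.95, 5.52 and 5.43 and 5.37, 6.18 and 5.74, and the lowest value came from wild-type dp18 replicate 1, as it did for Dna2 (0.46, SE 0.26, limma adjusted p = 1.000). With housekeeping centring, 40 members at dp12 and 33 at dp18 were higher in mutants. The mean over the 4 stages had 0 calls in limma (1 unadjusted; 0% of all genes called) and a median of 0.10.

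At Lac10 the sign turned on the deposited scale. Of 46 members 39 were lower in mutants, with a median of -0.20, close to the -0.19 over all genes, and 1 passed, Fen1, where 0.236% of all genes were called. With housekeeping centring, which moved the median of all genes by 0.60, the members' median was 0.40 with 42 higher in mutants, so the direction of the group depends on the scaling. Fen1 read 5.50, 6.45 and 6.13 at dp18 and 7.31, 7.76 and 7.74 at Lac10 in wild type. In mutants it read 6.70, 5.98 and 7.44 and then 5.85, 4.80 and 5.09. Its Lac10 difference was -2.36, SE 0.44, limma adjusted p = 0.0420, and -1.76 with housekeeping centring (limma adjusted p = 0.0777). The call was lost without mutant Lac10 replicate 2 (-2.13, limma adjusted p = 0.315) and without wild-type Lac10 replicate 2 or 3 (limma adjusted p = 0.246 and 0.356). Leaving out the 3 least correlated arrays together also ended it (limma adjusted p = 0.143). It was also lost, at limma adjusted p of 0.0541 to 0.0654, without wild-type dp18 replicate 3, wild-type dp12 replicate 1, any wild-type V replicate, any mutant dp12 replicate or mutant V replicate 1, which enter only through the shared spread and the other genes.

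Pold3 had the next largest Lac10 difference. It read 8.45, 8.42 and 8.52 in wild type and 7.07, 6.16 and 7.83 in mutants, with no overlap (-1.45, SE 0.34, limma adjusted p = 0.0654). Without mutant Lac10 replicate 2, its lowest array, the difference was -1.02 (limma adjusted p = 0.485), and it passed without wild-type dp18 replicate 1 (limma adjusted p = 0.0367) or mutant Lac10 replicate 3 (limma adjusted p = 0.00397). Rrm2 differed by -0.92, SE 0.31, limma adjusted p = 0.138. Among the other members the differences ran from -0.62 to 0.26, and Rfc5 alone had an unadjusted p under 0.05.

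The gene lists for other cell types and for proliferation also differed in level at Lac10, with no gene of the lists given here past the threshold in limma. Of 12 luminal markers 11 were lower in mutants (median -1.03), and their mean was 8.42 to 9.45 on wild-type and 6.51 to 9.47 on mutant Lac10 arrays. All 9 proliferation markers were lower (median -0.76), with means of 6.42 to 7.61 in wild type and 5.72 to 7.18 in mutants, and 4 luminal markers and 1 proliferation marker had an unadjusted p under 0.05. White adipocyte markers had means of 6.92 to 7.30 on wild-type and 6.57 to 9.09 on mutant arrays, with 7 of 9 higher in mutants (median 0.26). Skeletal muscle genes had means of 5.28 to 5.35 and 5.78 to 5.79, which did not overlap, with 5 of 5 higher in mutants (median 0.54), and of the macrophage and neutrophil markers 7 of 8 were lower (median -0.77). Of these 3 lists 4, 1 and 1 genes had an unadjusted p under 0.05. In the RefSeq annotation Fen1 lies between Fads1 and Tmem258 and overlaps the latter. Both were looked up after the Fen1 value was seen. Fads1, a fatty acid desaturase, read 10.92, 11.75 and 11.81 in wild type and 10.01, 9.08 and 10.85 in mutants at Lac10, a difference of -1.51 (limma adjusted p = 0.0695). Tmem258 read 6.73, 6.77 and 6.69 against 6.48, 5.54 and 6.11, a difference of -0.68 (limma adjusted p = 0.157). The part of the neighbouring genes and of cell composition in the Fen1 value was not tested.

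A moderated F test asked whether the genotype difference was unequal over the 4 stages. It called 0 of 46 members in limma and 0.00656% of all genes. At an unadjusted p under 0.05 were 3 members, against 1892 of the 15234 genes tested, so the members show no excess. Fen1 had the lowest p (limma adjusted p = 0.200), followed by Pold3 (limma adjusted p = 0.278) and Rrm2 (limma adjusted p = 0.335). As a single contrast, the Lac10 minus V change of mutants minus that of wild type was -2.17, SE 0.48, limma adjusted p = 0.0537 for Pold3, and -2.53, SE 0.63, limma adjusted p = 0.0636 for Fen1.

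**Figure D4:**
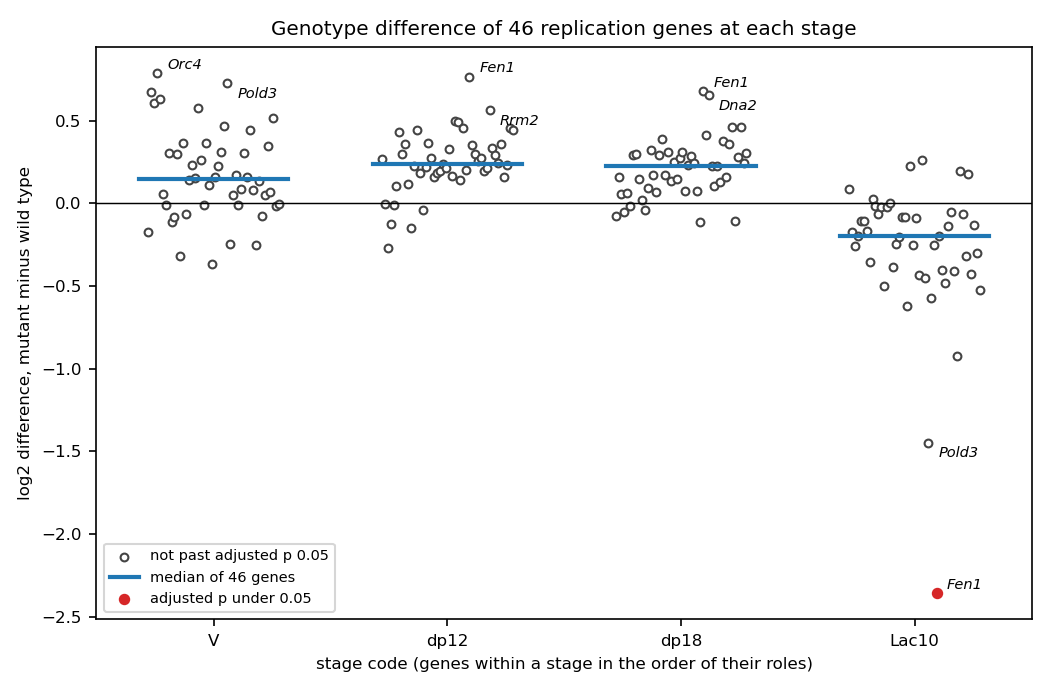
Log2 difference, mutant minus wild type, of 46 genes at each stage code, with a blue line at the median and the 2 largest differences of each stage named. The medians are 0.14, 0.24, 0.22 and -0.20 (with housekeeping centring -0.01 at V and 0.40 at Lac10), and Fen1 at Lac10 (-2.36) is the only red point, the member with an adjusted p under 0.05.

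The values rest on the choice of probe set for the 5 members with a pair of them. For Rpa3 the dimmer set also increased from V to dp12, by 0.83 against 1.23. For Pole, Rpa1 and Rrm2 the dimmer set was below the array median on all 24 arrays, with means of 4.28, 3.77 and 3.09 and V to dp12 differences of -0.12, -0.06 and 0.06. The dimmer Fen1 set was above the median on 16 arrays, with a mean of 5.51. It differed by -0.01 from V to dp12 and by 0.01 between genotypes at Lac10 (5.69 in wild type and 5.70 in mutants), against 1.87 and -2.36 on the brighter set. The sets of Fen1 disagree, and which of them measures the full transcript is not given in the sources used here.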

How the data were processed

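RNA was labelled as biotinylated cRNA and hybridised to single arrays, as the labels' protocols state. Log2 signals from RMA were deposited by the authors, per the submitters' processing notes. The RMA version and the genome build of the probe design are not given in the sources used here. Of 41345 probe sets, 23521 have 1 gene symbol, 1814 several and 16010 none. For each gene the single-symbol probe set of highest mean was kept. Genes were tested if at least 3 arrays exceeded their own median.

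A linear model with 8 group means was fitted to all 24 arrays with limma 3.58.1 in R 4.3.3 (lmFit, eBayes), and p-values were adjusted over 15234 genes by the Benjamini-Hochberg method, with a threshold of 0.05. The fit was tested on simulated data. Precision is limited by 3 arrays per group. Shares of all genes called are at the adjusted threshold. Apart from the F test, counts at an unadjusted p under 0.05 have no share of all genes beside them and show no excess. Values on each array are given for the member of lowest p in each role, the 2 of lowest p in each genotype comparison, the 3 of smallest change, and members whose probe sets differ in sign. The members and gene lists were chosen with earlier results of these data known. Alternatives were no filter, other probe sets, 2 centrings, a trended robust fit, array weights, a replicate block, the compared groups alone and leaving out arrays. A treatment text that names an RNA pull-down does not match the total RNA named elsewhere in the labels and was not used.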

Additional observations from a re-analysis of the deposited data

Results flagged for a closer look

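In 7 cases every later array of wild type lay above the mean of the earlier stage while every later array of the mutants lay below theirs, which marked the member for a closer look. The difference between the genotypes in the step was tested in limma. At an unadjusted p under 0.05 were 1, 6 and 5 members for dp12 minus V, Lac10 minus dp18 and Lac10 minus V. These counts have no share of all genes beside them and show no excess of members. After adjustment the difference passed in none of the 7 (0 of 46 members in each of these contrasts). The exception among the alternatives was Orc3 from V to dp12, called with the compared groups alone (limma adjusted p = 0.0216) and with array weights (limma adjusted p = 0.00416). From V to dp12 Orc3 differed by -0.874 (0.67 in wild type and -0.20 in mutants, limma adjusted p = 0.695) and Orc4 by -0.912 (0.71 and -0.20, limma adjusted p = 0.695). From dp18 to Lac10 the mutant step minus the wild-type step was -3.03 for Fen1 (1.58 and -1.46, limma adjusted p = 0.725), -1.06 for Dna2 (0.36 and -0.69), -0.875 for Rfc5 (0.30 and -0.58) and -0.710 for Clspn (0.39 and -0.32), the last 3 at a limma adjusted p of 0.742. From V to Lac10 Wdhd1 differed by -0.652 (0.40 and -0.25, limma adjusted p = 0.296). Groups of 3 arrays were not searched for single outlying arrays.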

How the results depend on the processing

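The count of members that rose from V to dp12 in the genotype mean was within 1.5 times its value under every alternative (34 to 38 with 1 array left out). Counts within a genotype were not. In wild type the 22 became 12 with no filter, 2 with housekeeping centring, 11 with array median centring, 41 with array weights, 38 without the 3 arrays of lowest correlation, 37 with the compared groups alone, and 0 to 31 with 1 array left out. In mutants the 22 became 40 with array weights, 34 without those 3 arrays, 36 with the compared groups alone, and 6 to 27 with 1 array left out. The 12 falls from dp12 to dp18 became 6 with no filter, 0 with housekeeping centring, 26 with array weights, 0 without those 3 arrays, 4 without wild-type Lac10 array 1 and mutant dp18 array 2, 3 with the compared groups alone, and 0 to 24 with 1 array left out. From dp12 to Lac10 the 36 falls became 18 with housekeeping centring, and 24 to 36 with 1 array left out. From V to Lac10 the single call became 0 with the dimmer probe sets, 2 with housekeeping centring, 8 with array weights, 5 without those 3 arrays, and 1 to 2 with 1 array left out. With array weights 1 member was called from dp18 to Lac10, 6 between virgins, 3 at Lac10, 1 in the mean of 4 stages, 5 for the unequal dp12 step and 7 in the F test. Without those 3 arrays 5 were called between virgins, 0 at Lac10 and 2 in the F test (0 to 1 with 1 array left out). The Lac10 genotype count was also 0 with no filter, with the dimmer probe sets, with their mean, with housekeeping centring and with the compared groups alone, and 0 to 2 with 1 array left out. With the compared groups alone 1 member, Orc3, was called for the unequal dp12 step (limma adjusted p = 0.0216). The Lac10 minus V comparison within each genotype, with all its alternatives, was added after the data were seen. Its 3 wild-type calls became 1 with the dimmer probe sets, 18 with array weights, 12 without those 3 arrays, 6 with the compared groups alone, and 1 to 4 with 1 array left out. In mutants the 0 became 1 with housekeeping centring, 2 with array weights, and 0 to 1 with 1 array left out. The cause of these changes was not tested, and the shares of all genes called under the alternatives are not given here.

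Equal wild-type replicate numbers did not mark paired arrays: deviations from group means correlated at -0.387 to 0.310. With the replicate block for wild type, 11 members were called in wild type from V to dp12 and 2 from dp12 to dp18. No other count moved by over 1.5 times under the block. The mutant titles give animal numbers in place of replicate numbers.

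The members' median at Lac10 (mutant minus wild type) turned to 0.40 with housekeeping centring and 0.12 with array weights. With the dimmer probe set Pole turned to -0.055 in wild type, -0.18 in mutants and -0.12 in their mean from V to dp12, 0.12 from dp12 to dp18 and 0.21 from dp12 to Lac10. Fen1 turned to -0.17 in wild type and -0.011 in the mean from V to dp12, 0.33 from dp12 to Lac10, 0.0076 between genotypes at Lac10 and 0.16 for the unequal dp18 to Lac10 step. Rpa1 turned to -0.18 in wild type and -0.057 in the mean from V to dp12, and 0.022 from dp12 to Lac10. Rrm2 turned to 0.030 from dp12 to dp18. The Wdhd1 difference in the V to Lac10 step turned to 0.095 with housekeeping centring. Single members were followed only where they were called as reported, had 1 of the 2 lowest p in a genotype comparison or were set apart for a closer look, so gains of a call among the other members are counted only in the totals given above.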
